A study of Mus musculus with 80 samples.

Results

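Expression and H3K9me2 were followed over 6 genes that encode histone H3 lysine 9 (H3K9) demethylases, Kdm1a, Kdm3a, Kdm3b, Kdm4a, Kdm4b and Kdm4c. The genes were picked by name. Each symbol matched 1 of the 25965 rows of the expression table, and all 6 were expressed above the filter on low values. The cells were E14, an established line of mouse embryonic stem cells (ESCs). RNA-seq covered 3 libraries each of cells kept in serum with LIF and of cells moved for 6, 24 or 72 h to 2i, the serum-free medium N2B27 with LIF, the MEK inhibitor PD0325901 and the GSK3 inhibitor CHIR99021. ChIP-seq for dimethylated H3K9 (H3K9me2) covered cells in serum, after 24 h of 2i, and in LT2i, which is long-term culture in 2i, with 2 bound libraries and 1 input each. All groups came from the same wild-type line, LIF was present in each, and no gene was deleted. The study calls its expression replicates biological, but neither it nor the labels say whether those of RNA-seq or ChIP-seq were separate cultures, so p-values measure the spread between these libraries, which may in part be technical.

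Methyl groups on lysine 9 of histone H3 mark chromatin that is mostly inactive, and UHRF1, which guides DNA methylation to newly copied DNA, reads this mark. The mark is written by enzymes such as EHMT2 (G9a) and EHMT1 (GLP) and is removed by 2 kinds of demethylase. KDM1A (LSD1) uses flavin and works in the CoREST and NuRD complexes, where it mostly acts on H3K4 and can also act on H3K9. The KDM3 and KDM4 proteins carry a Jumonji domain and need iron, oxygen and 2-oxoglutarate; KDM3A and KDM3B act on mono- and dimethylated H3K9, and KDM4A, KDM4B and KDM4C prefer H3K9me3 and H3K9me2. In ESCs, KDM3A and KDM4C have been described as regulators of pluripotency genes.

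Expression values are the deposited log2 levels, which are corrected for gene length and set to the same 75th percentile (2.51) in every library. Changes were tested with limma over all 11376 genes with a mean level above 0, and a gene with a Benjamini-Hochberg adjusted p under 0.05 was called. All 7 ESC markers, among them Pou5f1, Sox2 and Nanog, had mean levels of 5.80 or more in serum, and their summed level was 10.45 to 10.78 in serum, 10.38 to 10.67 at 6 h, 10.98 to 12 at 24 h and 11.08 to 11.8 at 72 h. The markers of other cell types lay below every ESC marker in serum. The highest mean there was 2.83, for Nes, which is above the 75th percentile of all rows. The summed level of the 4 fibroblast markers ran from 2.40 to 3.38. That of the 3 neural ectoderm markers was 3.09 to 3.33 in serum and 2.39 to 2.5 at 6 h. It was 2.17 to 2.96 at 24 h and 2.09 to 2.62 at 72 h. The summed trophoblast markers lay between 1.62 and 1.89 in serum, between -0.04 and 0.06 at 24 h and between 1.6 and 1.85 at 72 h. The mesoderm markers lay between 1.92 and 2.16, between 0.23 and 0.48 and between 0.58 and 0.81. Their part in the changes at 24 h and from 24 to 72 h was not tested. As a check of the medium, the mean of Dnmt3l was 6.62 in serum and 0.97 at 72 h, and that of Prdm14 1.77 and 4.14. The libraries differed in how levels followed gene span, the distance from start to end. Spearman's rho between a library's deviation from the gene mean and span was 0.16 to 0.26 in serum and 0.26 to 0.33 at 6 h. At 24 h it was -0.45 in replicates 1 and 2 and -0.06 in replicate 3, and at 72 h 0.09, -0.29 and 0.27. Replicate 3 of 24 h and replicate 2 of 72 h thus stood apart from their groups. The demethylase genes span 43.1 to 163.4 kb and lie between the 77.8 and 95.2 percentiles of span. Each change is therefore also given after the span trend was removed within each library. Since the trend also differed between groups, its removal takes out any effect of 2i that goes with span. Such an effect and a technical trend cannot be told apart here.

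The 6 genes differed in level. In serum the order was Kdm1a (5.36 ± 0.01), Kdm3a (5.28 ± 0.11), Kdm3b (4.46 ± 0.15), Kdm4a (4.12 ± 0.12), Kdm4c (3.98 ± 0.08) and Kdm4b (2.67 ± 0.15; SD, n = 3 each). The serum libraries of Kdm1a and Kdm3a overlapped, as did those of Kdm4a and Kdm4c, and the other neighbours were apart. Over the 12 libraries Kdm1a lay at the 88.6 percentile of tested genes and Kdm4b at the 40.3 percentile. At 72 h Kdm3a (5.26 ± 0.21) and Kdm1a (5.19 ± 0.04) overlapped at the top, Kdm4a (4.36 ± 0.26) and Kdm3b (4.32 ± 0.37) overlapped, and Kdm4c (2.86 ± 0.21) had come to overlap with Kdm4b (2.5 ± 0.20).

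The first question was which of these genes changed after transfer to 2i. At 6 h 2 of the 6 were called, 1 higher and 1 lower, where 14.2% of all tested genes were called, 8.24% higher and 6.01% lower. At 24 h 4 were called, all lower, beside a background of 62.7% called, 33.6% higher and 29.1% lower. At 72 h 1 was called, lower, against 50.5% of all genes and 26.0% lower. Between 24 and 72 h 3 rose, where 29.8% of genes were called and 15.2% were higher. In an F test over the 4 groups 73.7% of genes were called and 4 of the 6: Kdm3a (adjusted p 1.28e-05), Kdm4c (3.03e-05), Kdm3b (0.00121) and Kdm4b (0.00454), but neither Kdm4a (0.233) nor Kdm1a (0.26). The libraries of 4, 5 and 2 of the 6 genes did not overlap with serum at 6, 24 and 72 h, as was the case for 43.8%, 64.2% and 62.5% of all genes, and those of 3 did not overlap between 24 and 72 h (31.8% of all genes). On the log2 scale the 6 genes had a median change of -0.11 (6 h), -0.90 (24 h) and -0.16 (72 h), beside medians of 0.01, 0.10 and -0.01 over all tested genes. A lower value in bulk RNA may come from fewer cells or from less RNA per cell, which cannot be told apart here. After the span trend was removed the same 4 genes were called lower at 24 h, with a median over the 6 of -0.67.

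**Figure D1:**
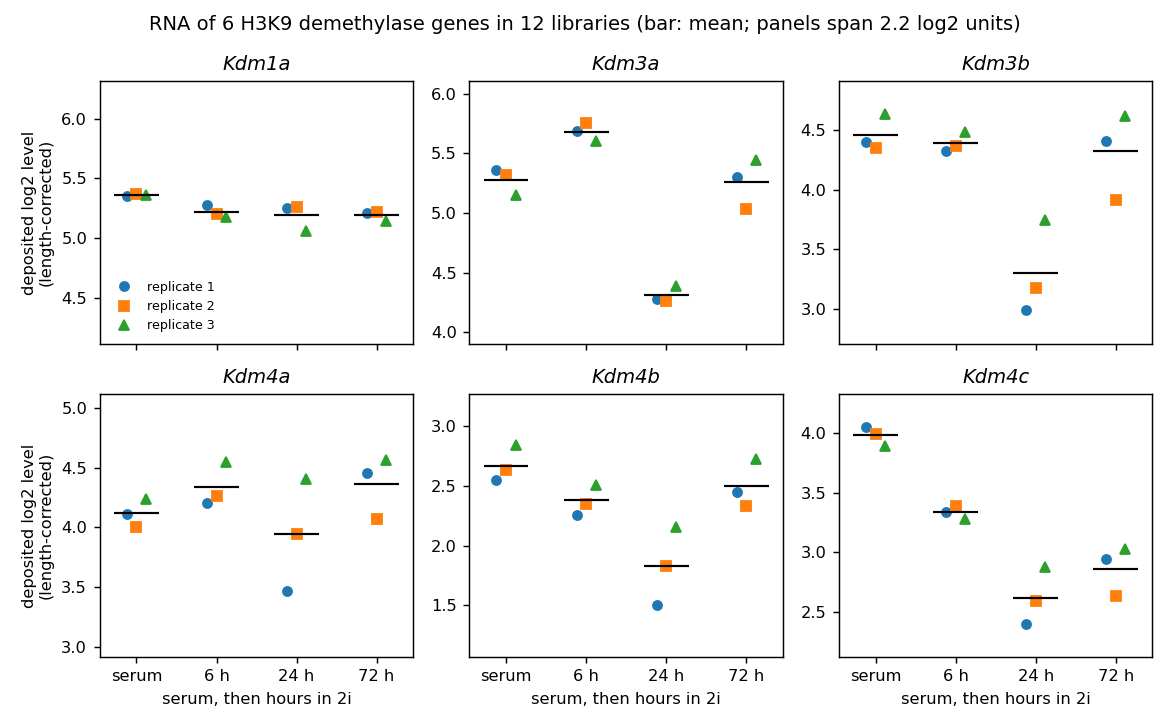
Deposited log2 level (vertical axis, length-corrected, each panel spanning 2.2 log2 units) of the 6 genes in serum and at 6, 24 and 72 h of 2i, with 1 symbol per library and a bar at the mean of 3. Kdm3a, Kdm3b and Kdm4b are lowest at 24 h and stand near their serum level at 72 h, Kdm4c is below every serum library at each time, and Kdm1a moves little.

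Kdm4c encodes a demethylase of H3K9me3 and H3K9me2 and lies on chromosome 4, 74242497 to 74405860 on the plus strand of GRCm38. Its log2 levels were 4.05, 3.99 and 3.89 in serum, 3.34, 3.39 and 3.28 after 6 h, 2.40, 2.59 and 2.88 at 24 h and 2.94, 2.63 and 3.03 at 72 h. Every 2i library lay below every serum library, and the libraries of 24 and 72 h overlapped. After 6 h it had changed by -0.64 from serum (SE 0.14, limma adjusted p 0.00871), which lies at the 4.1 percentile of all changes at that time. It was -1.35 at 24 h (SE 0.14, limma adjusted p 1.2e-05) and -1.11 at 72 h (SE 0.14, limma adjusted p 4.99e-05), a level 0.462 times that of serum. With the span trend removed these changes were -0.68, -0.89 and -1.0, each called, so that the 24 h change was over 1.5 times smaller. Kdm4c differed by 0.24 between 72 and 24 h (95% interval -0.06 to 0.54, limma adjusted p 0.189). Without 24 h replicate 3 that difference was 0.37 and passed (limma adjusted p 0.0307), and with the span trend removed it was -0.11 (limma adjusted p 0.36).

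The annotated start of Kdm4c in the expression table is not its CpG-rich start. RefSeq (GRCm38.p6) gives a promoter at each of 2 starts that are 9382 bp apart. The 250 bases before each are shown because the H3K9me2 values at the gene start, described further on, refer to the first of them. CG dinucleotides are in capitals.
Kdm4c, annotated start, chr4:74242247-74242496, plus strand: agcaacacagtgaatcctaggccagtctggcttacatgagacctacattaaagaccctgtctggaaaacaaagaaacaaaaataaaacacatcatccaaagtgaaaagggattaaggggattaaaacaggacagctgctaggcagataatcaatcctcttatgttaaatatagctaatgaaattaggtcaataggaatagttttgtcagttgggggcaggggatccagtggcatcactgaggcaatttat
Kdm4c, downstream start, chr4:74251629-74251878, plus strand: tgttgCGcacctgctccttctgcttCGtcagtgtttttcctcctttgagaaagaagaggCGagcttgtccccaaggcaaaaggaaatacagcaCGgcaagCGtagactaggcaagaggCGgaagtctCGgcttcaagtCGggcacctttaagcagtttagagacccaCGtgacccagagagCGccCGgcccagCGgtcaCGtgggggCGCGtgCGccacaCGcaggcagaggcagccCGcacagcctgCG
The first sequence holds 0 CG dinucleotides and the second 19, a number that 19.7% of the 32851 promoter windows in the RefSeq table reach. The letters ACGTG and GCGTG, the core of the hypoxia response element, were searched on both strands. They occurred 4 and 2 times before the downstream start, where each CACGTG counts on both strands, and 0 times before the annotated start. At least 1 of them was found in 38.6% of all windows. A noncoding row on the other strand, A230083N12Rik, overlaps the start region, with levels of -3.40 to 0.42.

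Kdm3a encodes a demethylase of mono- and dimethylated H3K9 whose transcription is known to be raised by hypoxia-inducible factor (HIF). It lies on chromosome 6, 71588974 to 71632905, on the minus strand. Its levels were 5.36, 5.32 and 5.15 in serum, 5.69, 5.75 and 5.6 at 6 h, 4.28, 4.26 and 4.39 at 24 h and 5.30, 5.03 and 5.44 at 72 h. The 6 h libraries were all above serum, the 24 h libraries all below it, and those of 72 h overlapped with serum. Kdm3a was 0.40 higher at 6 h (SE 0.12, limma adjusted p 0.0423, in 3 of 3 libraries). This call was lost on leaving out any 1 of the 6 libraries compared (limma adjusted p 0.0772 to 0.153), with changes of 0.34 to 0.45. It was also lost under 2 of 10 other settings. At 24 h Kdm3a fell by 0.97 on the log2 scale (SE 0.12, limma adjusted p 4.75e-05), to 0.512 times the serum level. At 72 h the difference from serum was -0.02 (95% interval -0.28 to 0.24, limma adjusted p 0.895). From 24 to 72 h it rose by 0.95 (SE 0.12, limma adjusted p 0.000224), which lies at the 95.4 percentile of all changes between these times. With the span trend removed the changes were 0.36, -0.81 and 0.03 from serum and 0.85 from 24 to 72 h, with the same calls.

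RefSeq gives 3 starts of Kdm3a, and the 250 bases before the outermost are shown beside those of Kdm4a, a gene on chromosome 4 (118136957 to 118180043, minus strand) that was called at no time, again with CG in capitals.
Kdm3a, chr6:71632918-71633167, minus strand: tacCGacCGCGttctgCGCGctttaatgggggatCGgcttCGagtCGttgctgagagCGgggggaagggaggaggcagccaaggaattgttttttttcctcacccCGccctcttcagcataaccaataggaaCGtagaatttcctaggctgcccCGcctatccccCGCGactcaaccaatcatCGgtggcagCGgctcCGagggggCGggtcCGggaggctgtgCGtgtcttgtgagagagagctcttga
Kdm4a, chr4:118180044-118180293, minus strand: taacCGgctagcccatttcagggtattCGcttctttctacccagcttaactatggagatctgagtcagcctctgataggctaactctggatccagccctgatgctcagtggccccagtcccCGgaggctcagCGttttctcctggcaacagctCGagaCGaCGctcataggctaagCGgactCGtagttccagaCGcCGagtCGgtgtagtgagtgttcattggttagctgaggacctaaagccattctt
These windows hold 20 and 12 CG dinucleotides, numbers that 17.9% and 33.5% of all promoter windows reach, where the median window holds 6. GCGTG occurred 1 time before Kdm3a and 0 times before Kdm4a, and ACGTG in neither. The windows before the other two starts of Kdm3a hold 31 and 0 CG dinucleotides and neither of these letters.

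Kdm3b, which encodes the closest relative of KDM3A, lies on chromosome 18, 34777008 to 34839370, on the plus strand. It stood at 4.40, 4.35 and 4.63 in serum, 4.32, 4.37 and 4.48 at 6 h, 2.99, 3.18 and 3.75 at 24 h and 4.41, 3.91 and 4.62 at 72 h. Only the 24 h libraries lay below all of serum, and among them replicate 3 was the highest; at 72 h replicate 2 was the lowest. These are the same libraries that stood apart in the trend with span, and what part that trend has in their spread was not tested. The 24 h difference of Kdm3b was -1.16 (SE 0.21, limma adjusted p 0.000636), or 0.448 times serum, and -0.88 with the span trend removed (limma adjusted p 0.000342). At 6 and 72 h the differences were -0.07 (95% interval -0.53 to 0.38) and -0.14 (95% interval -0.60 to 0.31), with limma adjusted p of 0.921 and 0.59, and with the span trend removed -0.11 and -0.06. Kdm3b rose by 1.01 from 24 to 72 h (SE 0.21, limma adjusted p 0.00432), by 0.82 with the span trend removed and by 1.44 without the 2 libraries that stood apart. A fit of just the 6 libraries of these times missed the threshold (limma adjusted p 0.0523).

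Kdm4b, another demethylase of H3K9me3 and H3K9me2, had the lowest mean of the 6 at every time. It lies on chromosome 17, 56326062 to 56402870, on the plus strand, and starts 2575 bp after the end of Uhrf1. Its levels were 2.55, 2.63 and 2.84 in serum, 2.26, 2.35 and 2.51 at 6 h, 1.5, 1.83 and 2.16 at 24 h and 2.45, 2.33 and 2.73 at 72 h. The libraries of 6 and 24 h lay below serum and those of 72 h overlapped with it. At 6 h the difference was -0.30 (95% interval -0.67 to 0.07, limma adjusted p 0.317) and did not pass, also with the span trend removed (-0.34). The 24 h difference was -0.84 (SE 0.17, limma adjusted p 0.00129), and -0.52 with the span trend removed (limma adjusted p 0.00256). The 24 h change therefore shrank by more than 1.5 times when that trend was removed and stayed called. From 24 to 72 h Kdm4b rose by 0.67 (SE 0.17, limma adjusted p 0.0122), or by 0.44 with the span trend removed, and its level at 72 h differed from serum by -0.17 (95% interval -0.54 to 0.20), or -0.08 with the span trend removed. The rise was no longer called without 72 h replicate 3 (0.56, limma adjusted p 0.0509) or with only the libraries compared (limma adjusted p 0.0813).

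Kdm4a encodes the third KDM4 enzyme studied here. Its levels were 4.11, 4.00 and 4.24 in serum, 4.20, 4.26 and 4.55 at 6 h, 3.47, 3.94 and 4.40 at 24 h and 4.45, 4.07 and 4.56 at 72 h. All 3 times overlapped with serum, and the 24 h libraries spread over almost a whole log2 unit. The differences from serum were 0.22, -0.18 and 0.24 (SE 0.21), with limma adjusted p of 0.63, 0.472 and 0.365. With the span trend removed they were 0.18, -0.03 and 0.29, and 0.33 from 24 to 72 h, none called. From 24 to 72 h the difference was 0.42 (95% interval -0.04 to 0.89, limma adjusted p 0.144). It passed without 24 h replicate 3 (0.66, limma adjusted p 0.00987) and with a replicate block (limma adjusted p 0.0497).

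Kdm1a, on chromosome 4, 136550540 to 136602723, minus strand, encodes the flavin-dependent enzyme. It stood at 5.35, 5.37 and 5.36 in serum, 5.28, 5.20 and 5.18 at 6 h, 5.25, 5.26 and 5.06 at 24 h and 5.21, 5.22 and 5.14 at 72 h. All 9 libraries of 2i lay below the 3 of serum, by little. The differences were -0.14, -0.17 and -0.17 (SE 0.09), with limma adjusted p of 0.388, 0.119 and 0.137, and their 95% intervals ended at -0.34 or -0.37. At 24 h quantile normalisation gave -0.26 and a call (limma adjusted p 0.0176), while removal of the span trend gave -0.18, 0.04 and -0.10 at the 3 times, none called. Luzp1 overlaps the end of Kdm1a on the other strand, with levels of 1.81 to 4.16, and reads from the shared stretch cannot be told apart without strand.

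**Figure D2:**
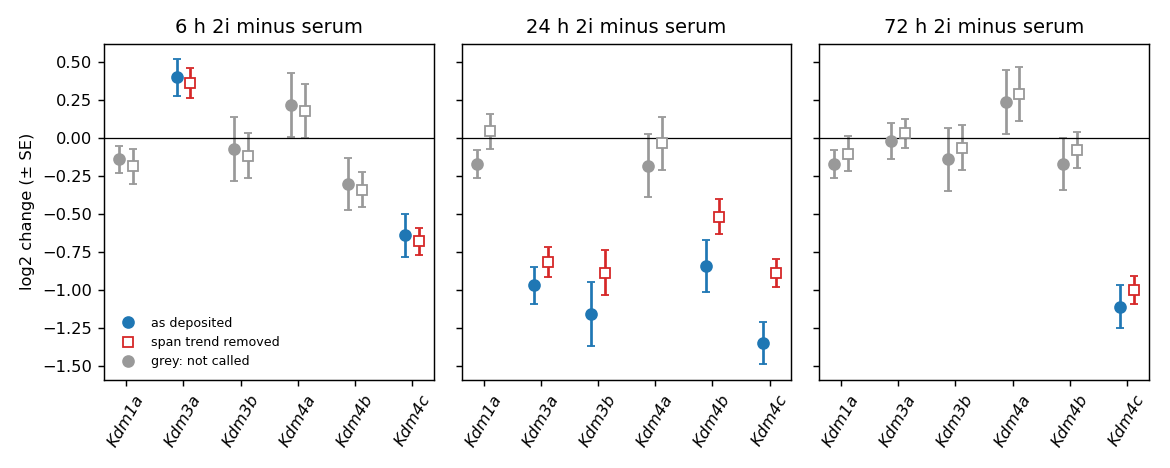
Log2 change from serum (vertical axis, with SE) of each gene at 6, 24 and 72 h, as deposited (filled circles) and with the trend of each library with gene span removed (open squares), in grey where the adjusted p was 0.05 or more. The 24 h changes of Kdm3a, Kdm3b, Kdm4b and Kdm4c are smaller without the span trend and are still called, and at 72 h only Kdm4c is called.

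Over the 12 libraries the genes most like each member were named by Pearson's r of the log2 levels, as a description. For Kdm3a they were Elf1 (0.985), Ctdspl2 (0.978) and Klf8 (0.977), and for Kdm3b Ubr3 (0.989), Slmap (0.989) and Cobl (0.987). For Kdm4c they were Itga3 (0.987), Zfp532 (0.987) and Med14 (0.985), and for Kdm4b Slc6a6 (0.983), Caskin2 (0.982) and Zbtb34 (0.980). Kdm4a was nearest to R3hdm2 (0.973), Dopey2 (0.972) and D6Wsu116e (0.969), and Kdm1a to Ppm1a, Rcl1 and Bckdk (0.953 each). Among the members, Kdm3b and Kdm4b were the most alike (r = 0.944), then Kdm3a and Kdm3b (0.876), and Kdm1a and Kdm4a the least (-0.459). These values share the 12 libraries, their groups and their trend with span.

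Genes that act with or beside the demethylases were taken from fixed lists. The counts below stand beside shares over all tested genes called higher and lower of 8.24% and 6.01% (6 h), 33.6% and 29.1% (24 h), 24.5% and 26.0% (72 h), and 15.2% and 14.6% (from 24 to 72 h). Of the other H3K9 demethylases, 5 of 6 in the table were tested. At 24 h 3 were lower and none was higher, with a median of -0.81. With the span trend removed the counts were the same and the median was -0.41. Jmjd1c, the third member of the KDM3 family by sequence, fell further than any of the 6 genes. Its mean level went from 4.45 ± 0.06 in serum to 3.52 ± 0.06, 1.38 ± 0.44 and 2.05 ± 0.48 at 6, 24 and 72 h, with changes of -0.93, -3.07 and -2.39 (limma adjusted p 0.023, 1.79e-06 and 9.76e-06). Removal of the span trend gave -2.28 at 72 h. The PHD finger demethylases Phf8 (-0.81, limma adjusted p 0.00671) and Jhdm1d (-1.29, limma adjusted p 0.00464) were lower at 24 h (-0.41 and -0.99 with the span trend removed) and not called at 72 h, although Phf8 was called there with the span trend removed (-0.38, limma adjusted p 0.0388). Phf2 (-0.16 at 24 h) and Kdm1b (-0.28), the paralogue of Kdm1a, were called at no time, and Kdm4d lay below the filter, with means of -3.55 to -2.64.

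Of 15 genes for partners of KDM1A in CoREST and NuRD, 3 were higher and 8 lower at 24 h (background 33.6% and 29.1%), and 2 were higher and 7 lower at 72 h (median -0.23). The largest changes at 72 h were those of Rcor3 (1.67, limma adjusted p 3.38e-05), a CoREST protein, Gse1 (-1.38, limma adjusted p 0.00121), Phf21a (-1.35, limma adjusted p 0.000381), which reads unmethylated H3K4, and Chd4 (-1.29, limma adjusted p 0.0029), the remodeller of NuRD. Demethylases of other histone lysines were lower for 7 of 8 genes at 24 h (median -1.43) and for 7 of 8 at 72 h (median -0.78), with none higher, and 6 of the 8 rose from 24 to 72 h. With the span trend removed these counts were 7, 6 and 4. At 72 h the largest changes were those of Kdm5c (-1.19, limma adjusted p 0.000669), an eraser of H3K4 methylation, Kdm2b (-1.08, limma adjusted p 1.59e-05), Kdm2a (-1.05, limma adjusted p 0.00329) and Kdm6a (-0.93, limma adjusted p 0.000267), which acts on H3K27.

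The enzymes that write the mark were compared at the same times. Of 10 tested entries for H3K9 methyltransferases and cofactors, among which Atf7ip has 2, 5 were lower and 1 higher at 24 h (none higher with the span trend removed), and 5 were lower and none higher at 72 h (median -0.46). The largest changes at 72 h were those of Ehmt1 (-1.41, limma adjusted p 6.44e-05), Trim28 (-1.18, limma adjusted p 1.18e-05), Atf7ip, a cofactor of SETDB1, at the longer of its entries (-1.18, limma adjusted p 0.00422; -0.31 and 0.263 at the shorter) and Ehmt2 (-1.11, limma adjusted p 2.04e-05). Ehmt2 was also lower at 6 h (-0.77, limma adjusted p 0.00126), as the only 1 of the 10 entries called there. Kdm4c had fallen by that time, and the call of Kdm3a as higher was lost on leaving out any 1 library.

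Because Kdm3a is a HIF target, 12 other HIF targets were set beside it. At 6 h 3 were higher and 5 lower, at 24 h 5 higher and 2 lower (4 lower with the span trend removed), and at 72 h 8 higher and 3 lower (median 0.86). Of all tested genes 33.6% were called higher and 29.1% lower at 24 h, and 24.5% and 26.0% at 72 h. Pdk1 was lower at all 3 times (-2.21, -2.31 and -2.3). Vegfa (2.16, limma adjusted p 8.31e-06), Ndrg1 (2.03, limma adjusted p 1.19e-07) and Ddit4 (1.72, limma adjusted p 2.47e-06) were higher at 72 h. Ndrg1 was higher at 6 h (1.12), near serum at 24 h (0.11) and higher again at 72 h. Kdm3a was likewise higher at 6 h than at 24 h, but it lay below serum at 24 h (-0.97) and near it at 72 h (-0.02). Most of the 12 targets went the other way, with a higher mean at 24 h than at 6 h, and Ddit4 stood highest at 24 h (2.80). Some of these steps lay within the spread of the libraries. From 24 to 72 h, when Kdm3a rose by 0.95, 4 of the 12 were called higher and 1 lower (background 15.2% and 14.6%, median 0.30). Whether HIF has a part in the changes of Kdm3a was not tested. The Jumonji enzymes use 2-oxoglutarate and iron. Of 16 genes for the formation, use, uptake or storage of these, 8 were higher and 2 lower at 24 h (background 33.6% and 29.1%). Those called higher include genes whose products use 2-oxoglutarate or store iron. Those called lower are for forming 2-oxoglutarate or taking up iron, so the counts are not of supply alone. At 72 h 7 were higher and 2 lower (24.5% and 26.0%, median 0.28). Idh1 (1.82, limma adjusted p 1.06e-06), Idh2 (1.69, limma adjusted p 1.64e-06), Gpt2 (1.65, limma adjusted p 5.18e-08) and Psat1 (1.01, limma adjusted p 0.0024), all of which form 2-oxoglutarate, changed most.

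Of 4 listed genes that have been described as targets of KDM3A or KDM4C in ESCs, 3 were tested, and they went different ways. The other, Tcfcp2l1, had no row under that symbol. Nanog, a core pluripotency factor, was higher at 6, 24 and 72 h (1.11, 1.55 and 1.72, with limma adjusted p of 0.00111, 2.29e-05 and 1.02e-05). Zfp57, which guards imprinted methylation, was lower throughout (-2.02, -1.67 and -0.72, with limma adjusted p of 0.000434, 0.000347 and 0.0462); the last call was lost with the span trend removed (limma adjusted p 0.0589). Tcl1, a cofactor of AKT, did not pass at any time (-0.19, -0.21 and 0.03), but passed at 24 h with the span trend removed (-0.55, limma adjusted p 0.000336).

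The second question was how H3K9me2 was placed over the demethylase genes themselves. Enrichment is given as log2 of bound over input reads, each relative to the library total, summed over the 2-kb bins of a gene. It cannot show a loss shared by the whole genome, and the lone input of a condition enters both replicates. The libraries held 14396552 to 23785128 reads in bins. In serum all 6 gene bodies lay below the median of all 20895 tested bodies (-0.83), with means from -2.35 for Kdm3b to -1.41 for Kdm4b, which are the 17.7 and 36.4 percentiles. At 24 h none of the 6 was called, beside 0.0239% of all bodies, and none had an unadjusted p under 0.05 in limma, where 3578 of the 20895 bodies did. The differences ran from -0.36 (Kdm1a and Kdm3a) to 0.07 (Kdm4a), with 95% intervals that reached from -0.98 (Kdm4b) to 0.60 (Kdm4a), so the missing calls do not show that the bodies were unchanged. Both 24 h libraries lay below both of serum for Kdm1a, Kdm3a, Kdm4b and Kdm4c, and libraries did not overlap for 52.8% of all bodies.

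In LT2i 5 of the 6 bodies were called, all lower, where 61.1% of all bodies were called, 7.38% higher and 53.7% lower. The median change of the 6 was -1.40 and that of all bodies -0.64. These medians take no account of serum level, with which the change went, though not in the same direction throughout. Among bodies near -1.8 in serum, the level of Kdm3a, the most frequent rounded change was -1.2 (40 bodies). Among those near 0.4 it was 0.1 (108 bodies), and among the few near -4.5 it was -0.1 (4 bodies). The serum level also enters the change, so part of this relation is built in. The 6 bodies, all below the serum median, were not tested against bodies of like serum level. The direction of the calls depends on the scale. The median level of all bodies went from -0.83 to -1.69, and when it was set equal in every library, 7690 bodies were higher and 2809 lower in place of 1543 and 11221. On that scale only Kdm4b was still called lower, and Kdm4c was called higher.

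Kdm4b lost the most. Its body held 395 and 278 bound reads in serum, 210 and 226 at 24 h and 59 and 31 in LT2i, with inputs of 921, 1136 and 678. Enrichment was -1.19 and -1.64 in serum, -1.71 and -1.65 at 24 h and -3.70 and -4.39 in LT2i, so that both LT2i libraries lay below all others. The change in LT2i was -2.63 (SE 0.29, limma adjusted p 0.00113), or 0.162 times the serum enrichment, at the 0.4 percentile of all bodies. With medians set equal it was -1.77 (limma adjusted p 0.00193). Kdm4b had gone from the 36.4 to the 8.8 percentile of enrichment. RNA was not measured in LT2i, and at 72 h, the latest time with RNA, the Kdm4b level overlapped with serum.

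Kdm4c differed from this. Its body, the longest of the 6 with 78 bins, held 528 and 504 bound reads in serum, 379 and 395 at 24 h and 401 and 358 in LT2i, with inputs of 1564, 1967 and 1242. Enrichment was -1.53 and -1.54, then -1.65 and -1.64, then -1.82 and -1.77. The LT2i libraries were the lowest, by a small step of -0.26 (SE 0.12, 95% interval -0.56 to 0.04, limma adjusted p 0.113). That step lies at the 67.3 percentile of all changes, taken over bodies of every serum level. Bound reads taken without the input gave -0.28 and a call (limma adjusted p 0.00627), and medians set equal gave 0.60 (limma adjusted p 0.0103), the opposite sign. Split at its midpoint, the start-side part of the gene went from -1.84 and -1.80 in serum to -2.39 and -2.25 in LT2i, and the end-side part from -1.26 and -1.31 to -1.39 and -1.38. The 50 kb on either side of Kdm4c were above input in every condition, at 0.21 in serum and 0.37 in LT2i upstream and at 0.24 and 0.59 downstream, with replicates summed. Only 13 and 14 bins of these flanks were measured.

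The other members fell together in LT2i. Kdm3b went from -2.50 and -2.20 in serum to -4.01 and -3.94, a change of -1.62 (SE 0.26, limma adjusted p 0.00333). Kdm4a went from -1.84 and -2.03 to -3.62 and -3.25, a change of -1.50 (SE 0.21, limma adjusted p 0.00228). Kdm1a went from -2.19 and -2.09 to -3.62 and -3.26, a change of -1.30 (SE 0.22, limma adjusted p 0.00424). Kdm3a went from -1.70 and -1.93 to -2.90 and -3.13, a change of -1.21 (SE 0.19, limma adjusted p 0.00301). Every LT2i library lay below every serum library for all 6 genes, Kdm4c included, and libraries did not overlap for 82.2% of all bodies. With medians set equal these 4 changes were -0.77, -0.65, -0.44 and -0.35 and were not called (limma adjusted p 0.0604, 0.0524, 0.178 and 0.14).

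**Figure D3:**
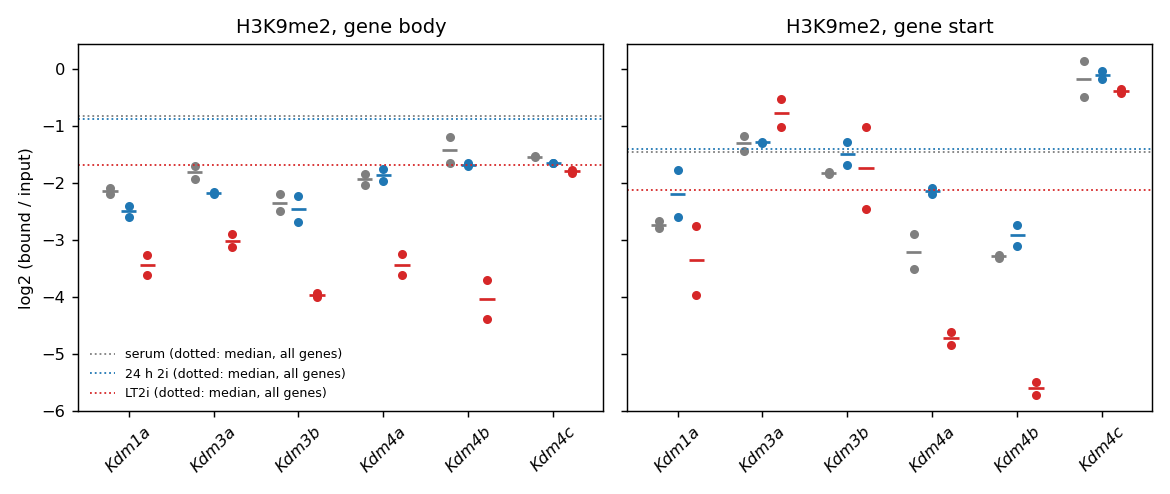
H3K9me2 as log2 of bound over input (vertical axis) for each gene, over the gene body (left) and the annotated start (right). Starts take the whole 2-kb bins that overlap 2 kb to either side. Each bound library has 1 point, with a bar at the mean of 2. Dotted lines lie at the median of all genes tested in each condition. Over bodies the LT2i points of Kdm4c stay near those of serum and those of the other 5 genes lie lower.

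**Figure D4:**
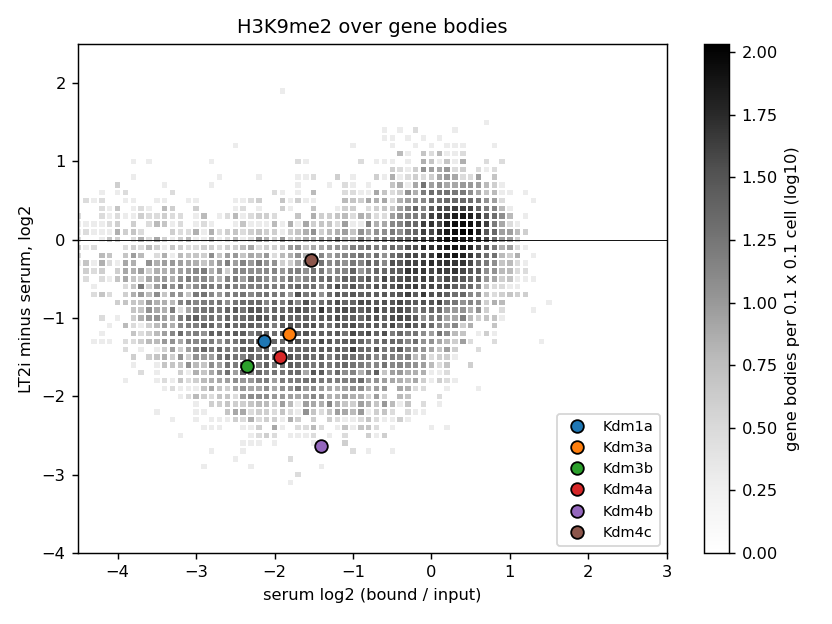
Enrichment in serum (horizontal axis, log2 of bound over input) against the change from serum to LT2i (vertical axis, log2) for all tested gene bodies, as the number of bodies per cell in grey, with the 6 genes in colour. Kdm4b lies at the lower edge of the cloud at -2.63 and Kdm4c near its upper part at -0.26; 116 bodies lie outside the axes.

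Along the genes the mark was uneven. In 10-kb windows with both replicates summed, the window that begins at the start of Kdm4b was its lowest in every condition, at -2.93, -2.98 and -5.50 in serum, at 24 h and in LT2i. Enrichment rose toward the end of the gene, to -0.83 in serum in the window centred at 55.0 kb and to -3.37 in LT2i in that at 65.0 kb. Kdm1a, Kdm3b and Kdm4a were also lowest in serum in their first window (-2.83, -3.12 and -3.31), and Kdm3a in that centred at 25.0 kb (-2.21). Kdm4c was the reverse. Its first window was its highest (-0.71 in serum, -0.84 at 24 h and -0.59 in LT2i) and the next, which follows the downstream CpG-rich start, was its lowest in serum and in LT2i (-2.94 and -3.73). No window centred within one of the 6 bodies was above input in any condition; the window at 165.0 kb, which holds the end of Kdm4c and the start of its flank, was (0.18, 0.31 and 0.15). Upstream of Kdm3a, enrichment over the 50 kb before the gene was -0.05 in serum and -0.53 in LT2i, against -1.79 and -3.06 in its body.

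**Figure D5:**
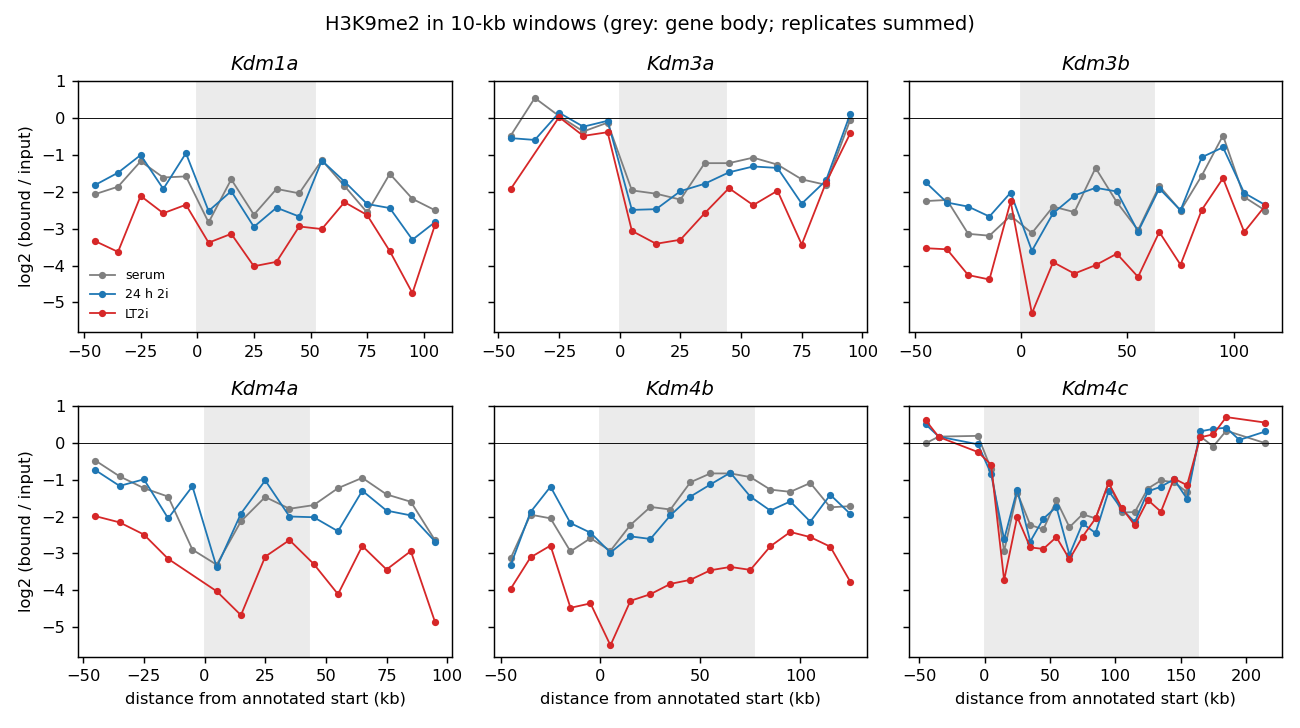
H3K9me2 as log2 of bound over input in 10-kb windows (vertical axis) against distance from the annotated start in kb (horizontal axis), with the gene body in grey, replicates summed and windows with under 30 input reads left out, so that lines may bridge gaps. LT2i runs below serum along the whole of Kdm4b and lies near it in some windows of the far part of Kdm4c (95.0 kb), above it in others (105.0, 145.0 and 155.0 kb) and below it at 115.0, 125.0 and 135.0 kb.

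Each annotated start was taken over the whole 2-kb bins that overlap 2 kb to either side, 3 bins for each of the 6. Few reads were available there, and no start of the 6 was called at 24 h. Of all 21064 starts 1.45% were, 0.874% higher. None of the 6 had an unadjusted p under 0.05 in limma, where 3099 of all starts did. The 24 h libraries of Kdm1a, Kdm3b, Kdm4a and Kdm4b lay above those of serum in enrichment, and libraries did not overlap for 46.7% of starts. In LT2i 2 of 6 were called, both lower, where 30.6% of starts were called, 6.02% higher and 24.6% lower. With medians set equal this split turned, to 4768 starts higher and 1432 lower in place of 1269 and 5178, and of the 6 Kdm4b was called lower and Kdm3a higher. Kdm3a, Kdm4a and Kdm4b did not overlap with serum, beside 65.5% of starts. The start of Kdm4b had 5 and 5 bound reads in serum, 5 and 7 at 24 h and 0 and 0 in LT2i, beside 60, 84 and 45 in the inputs. With a floor of 3 reads over the LT2i libraries and the 10 serum reads taken as exact, the share of bound reads was 2.98-fold lower than in serum. The counting error of the serum reads and the input do not enter this value. That start passed the test (limma adjusted p 0.00662), but not with 5 reads added in place of 1 (limma adjusted p 0.0592), nor without serum replicate 1 or 2 (limma adjusted p 0.0554 and 0.0535). The start of Kdm4a had 7 and 4 reads in serum, 8 and 9 at 24 h and 1 and 1 in LT2i (-1.52, SE 0.58, limma adjusted p 0.0415), a call that was lost on leaving out any 1 of the 4 libraries (limma adjusted p 0.0631 to 0.277) and under 6 of 7 other settings, with changes down to -0.67. Kdm1a had 2 to 10 reads per library and could not be told apart from its serum level (95% interval of the LT2i change -1.67 to 0.43).

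The starts of Kdm3a and Kdm4c kept their reads. Kdm3a had 20 and 23 bound reads in serum, 19 and 20 at 24 h and 38 and 23 in LT2i, with enrichments of -1.43 and -1.18, -1.29 and -1.28, and -0.52 and -1.01. Its LT2i libraries were above serum by 0.54 (SE 0.30, limma adjusted p 0.172), at the 90.4 percentile of changes; medians set equal gave 1.19 and a call (limma adjusted p 0.00278), while a window of 5 kb to either side gave -0.51 (limma adjusted p 0.0555). In the 2-kb bin that holds the start shown above, Kdm3a had only 2, 2, 3, 2, 5 and 1 reads in serum, at 24 h and in LT2i, so most reads of the wider window came from its neighbours. Kdm4c, at -0.48 and 0.15 in serum, was the only member whose start lay near input, at the 75.6 percentile, and its LT2i change was -0.21 (95% interval -0.69 to 0.28, limma adjusted p 0.545). The bin of its annotated start, without CG dinucleotides, held 8 and 19, 4 and 8, and 13 and 12 bound reads with inputs of 14, 19 and 14. The bin of the CpG-rich start 9382 bp downstream held 3 and 4, 6 and 3, and 3 and 3 with inputs of 23, 26 and 8. Kdm3b had 16 and 15 reads in serum and 21 and 6 in LT2i, which spread around serum (0.09, 95% interval -0.71 to 0.88).

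The LT2i changes over bodies were set beside those of the neighbouring lists. Of the 6 other H3K9 demethylases 5 were lower and none higher (median -0.55), of 15 partner genes of KDM1A 9 were lower and none higher (-1.12), of 9 demethylases of other lysines 4 were lower and 2 higher (-0.62) and of 11 entries for H3K9 methyltransferases and cofactors 9 were lower and none higher (-1.29). Of 12 HIF targets 11 were lower and 1 higher (-1.03). Of 14 genes that form, use, take up or store 2-oxoglutarate or iron, 11 were lower and none higher (-1.20). Of the 3 described targets that were tested, none was called (-0.45). The background, taken over bodies of every serum level, is 53.7% lower and 7.38% higher.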

How the data were processed

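RNA-seq (12 libraries) and H3K9me2 ChIP-seq (6 bound, 3 inputs) of E14 were used. The 59 bisulfite samples were not used, since their coordinates are on NCBIM37 and those of the gene tables on GRCm38. RNA levels were deposited as log2 values, which the authors had corrected for gene length and depth, from reads trimmed with Trim Galore 0.3.5 and aligned with TopHat2 2.0.11 according to the submitters' processing notes; no counting tool is named, and total reads are unknown. ChIP-seq values, also deposited on a log2 scale, give the reads (Bowtie2) of each 2-kb bin, with inputs in separate columns; whole reads were recovered for all values within 2%. Bins that overlap a gene body or a start (2 kb to either side) were summed whole. Bound and input sums per region received 1 read each. Regions needed a mean of 20 reads over 9 libraries. The floor of 3 reads covers only the counting error of the LT2i zeros and not that of the serum reads. Intervals come from limma and the spread between libraries.

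Both tables were fitted in limma 3.58.1 (R 4.3.3, eBayes with trend), with all groups sharing the spread and Benjamini-Hochberg adjustment over all features. The fits were tested on simulated data, in which small RNA changes were mostly missed, as were most changes over gene bodies and all at starts, so a missing call there says little. The simulations changed a smaller share of features than was called in RNA and in LT2i, so they do not give the share missed in those comparisons. Same-number RNA libraries deviated together between serum and 6 h (r 0.256 to 0.665) and serum and 24 h (0.132 to 0.535). They did not in every pair for the other comparisons. Libraries of different number could do so more. Serum replicate 2 had r of 0.452 with 24 h replicate 1, against 0.132 with its own number. The labels give no pairing, and these values do not show pairing by number. Alternatives were other filters, scalings, offsets and windows, a replicate block and single libraries left out. The trend of each library with gene span was removed as an alternative. All 6 members were named, with all other H3K9 demethylases and described targets, up to 4 called genes with the largest 72 h changes per remaining list, and the 3 most alike genes per member. Members and lists were chosen with earlier results of these data known. All columns of per-sample values in the RNA and H3K9me2 tables were used.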

Additional observations from a re-analysis of the deposited data

Results flagged for a closer look

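For 3 of the 6 genes the change from serum differed between 24 and 72 h in a direct test of these times, with the serum libraries shared by both. Kdm3a was 0.95 higher at 72 h than at 24 h on the log2 scale (limma adjusted p 0.000224), Kdm3b 1.01 higher (limma adjusted p 0.00432) and Kdm4b 0.67 higher (limma adjusted p 0.0122), each in 3 of 3 libraries; 31.8% of all tested genes had libraries that did not overlap between these times. With 24 h replicate 3 and 72 h replicate 2 left out together the differences were 1.1, 1.44 and 0.92, and with the span trend removed 0.85, 0.82 and 0.44, all called. With only the libraries compared Kdm3b and Kdm4b lost the call (limma adjusted p 0.0523 and 0.0813), as did Kdm4b without 72 h replicate 3 (limma adjusted p 0.0509). Single values far from their group were not tested for, with 2 or 3 libraries a group.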

How the results depend on the processing

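The count of genes at 6 h (1621) was 880 for genes with a mean level above 2, 463 with an absolute log2 change of 1 or more, 3239 with only the libraries compared and 1042 to 1218 without any 1 library. With that change required, the counts were 2850 at 24 h, 2038 at 72 h, 841 between 24 and 72 h and 3523 in the F test; with a mean level above 2 they were 3801 at 72 h and 2088 between 24 and 72 h. The latter (3388) was 1212 with only the libraries compared, 2011 to 6197 without any 1 library (6197 without 24 h replicate 3, 2011 without 72 h replicate 1, 2205 without 24 h replicate 2) and 7248 without 24 h replicate 3 and 72 h replicate 2. This setting and those of the F test were chosen after seeing the data. For H3K9me2 bodies at 24 h (5) the count was 533 without the input and 0 in limma without a filter, with a mean of 50 or more reads, with only the libraries compared or without any 1 library (0 to 0), beside 2264 to 3976 bodies at an unadjusted p under 0.05. Starts at 24 h (306) gave 2 without the input, 1079 with 5 reads added and 81 to 119 without any 1 library; with medians set equal 111 were higher and 111 lower, in place of 184 and 122. Starts in LT2i (6447) gave 1495 with 50 or more reads, 11402 within 5 kb and 3254 to 5379 without any 1 library (3254 and 4251 without serum replicate 1 and 2). In place of 1269 higher and 5178 lower, 713 were higher and 782 lower with 50 or more reads, and 4768 and 1432 with medians set equal. Kdm4c over its body turned from -0.26 to 0.60 with medians set equal. The cause of these shifts was not tested. With an absolute change of 1 or more required, Kdm3a and Kdm4b lost their calls at 24 h and between 24 and 72 h, as did Kdm3a and Kdm4c at 6 h.

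A replicate block raised the count between 24 and 72 h to 5288, brought Kdm4a there past the threshold (0.42, limma adjusted p 0.0497), left 0 bodies at 24 h (3743 at an unadjusted p under 0.05) and changed no other call of the 6 genes. Against serum it called 2234 (6 h), 8053 (24 h) and 6786 (72 h) genes. Every same-number correlation of RNA deviations was over 0.1 between serum and 6 or 24 h, but not between serum and 72 h (lowest 0.051) or 24 and 72 h (lowest -0.324); over all groups 15 of 18 were, and 23 of 36 were best with their own number. In ChIP-seq they ran from -0.006 to 0.067, so there the libraries share only a number. Over single genes, 573 alternative values kept their direction and side of the threshold, 33 lost a call, 6 gained one and 36 turned their sign, of which only that of Kdm4c over its body passed the test on either side.

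The other turned signs in RNA were those of Kdm1a at 24 h (0.044) and Kdm3a at 72 h (0.031) and Kdm4c between 24 and 72 h (-0.11) with the span trend removed, of Kdm3a at 72 h (0.033) and Kdm1a between 24 and 72 h (0.13) with quantile normalisation, and of the latter with medians set equal (0.0066). Without any 1 library, Kdm3b ran from -0.12 to 0.013 at 6 h and from -0.30 to 0.058 at 72 h, Kdm4a from -0.41 to 0.054 at 24 h, Kdm3a from -0.12 to 0.093 at 72 h and Kdm1a between 24 and 72 h from -0.065 to 0.036 (-0.080 without 24 h replicate 3 and 72 h replicate 2). In H3K9me2, values without the input were -0.097 for the Kdm4a body and -0.059 for the Kdm4c start at 24 h and -0.25 for the Kdm3b start in LT2i. With medians set equal the starts of Kdm3a at 24 h (-0.022), Kdm1a in LT2i (0.023) and Kdm4c in LT2i (0.44) turned. Within 5 kb, starts at 24 h gave -0.42 (Kdm3a), -0.20 (Kdm4b) and -0.065 (Kdm4c), and in LT2i -0.51 (Kdm3a) and -0.32 (Kdm3b). Without any 1 library the bodies of Kdm3b and Kdm4a ran from -0.33 to 0.13 and from -0.028 to 0.17 at 24 h, the starts of Kdm3a and Kdm4c from -0.10 to 0.15 and from -0.25 to 0.38 at 24 h, and those of Kdm3b and Kdm4c from -0.63 to 0.81 and from -0.52 to 0.11 in LT2i.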
